A study of Mus musculus with 19 samples.

Results

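The genes of the aminoacyl-tRNA synthetases were followed across 19 libraries of mouse liver tumors. A gene was a member if its symbol was a single letter followed by ARS, with or without a closing 1 or 2, or was EPRS, FARSA or FARSB. This rule found 37 of the 19486 genes in the table, 20 of them cytosolic and 17 mitochondrial, the mitochondrial ones being those whose symbol ends in 2. All 37 matched a mouse gene symbol and all 37 passed the filter on low values. The tissue given for every sample is hepatocellular carcinoma of the liver, and the groups are named as the labels name them. MYC_Recur, MYC_Twist1_OFF and MYC_OFF hold 3 libraries each, and MYC_Twist1_HCC and MYC_HCC hold 5 each. The labels give no genotype, promoter, treatment, time or age for any group, and they do not say what OFF and Recur mean beyond the names. Nothing in them shows that libraries of 1 group are from different animals, and the spread behind each p-value may therefore be technical. The titles mark the 10 HCC libraries as re-analysed and not the other 9, and do not say that either kind is 1 batch. Wherever an HCC group is set against a group of the other kind, label and this mark cannot be told apart. MYC_Recur against MYC_OFF, MYC_Twist1_OFF against MYC_OFF, and MYC_Twist1_HCC against MYC_HCC each lie within 1 kind.

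Aminoacyl-tRNA synthetases join each amino acid to its own tRNA, the step that sets the genetic code and supplies the ribosome. Most amino acids have one enzyme for the cytosol and another, from a separate nuclear gene, for the mitochondria, while the Gars and Kars genes are known to serve both compartments and are counted here as cytosolic. Several cytosolic enzymes sit in the multisynthetase complex with the scaffold proteins encoded by Aimp1, Aimp2 and Eef1e1, and many cytosolic genes are known targets of Atf4, the transcription factor of the amino acid response. In liver and in tumors MYC is known for raising genes of ribosomes and translation.

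Deposited values are normalized signal per gene with no stated unit, and they summed to between 507868 and 690310 per library. Myc averaged 156 ± 3.14 in MYC_Recur, 39.7 ± 6.65 in MYC_Twist1_OFF, 45.7 ± 13.1 in MYC_OFF, 125 ± 19.3 in MYC_Twist1_HCC and 159.5 ± 19.2 in MYC_HCC (SD, n = 3, 3, 3, 5 and 5). Twist1 reached 0.12 at most in libraries with Twist1 in their name and 0.27 at most elsewhere, so a direction between such groups has only the name behind it. Across genes, MYC_HCC 4 correlated with the mean of its group's other libraries at 0.89, the lowest of the 19 libraries, where the other 18 gave 0.908 to 0.985. Hepatocyte markers were present, 7 of 8 being in the table and none at 0 everywhere. Their summed level ran from 4783 to 6217 in MYC_Recur, 1328 to 1424 in MYC_Twist1_OFF, 1326 to 1886 in MYC_OFF, 3567 to 5388 in MYC_Twist1_HCC and 5906 to 10439 in MYC_HCC. Of the 7 hepatocyte markers, 6 were higher and 0 lower in MYC_Recur than in MYC_OFF, 6 were lower and 0 higher in MYC_OFF than in MYC_HCC, and 5 were lower and 0 higher in MYC_Twist1_OFF than in MYC_Twist1_HCC. The summed level of 6 endothelial markers was 5.13 to 10.7 in MYC_Recur, 65.4 to 113.8 in MYC_Twist1_OFF, 32.0 to 88.5 in MYC_OFF, 9.25 to 20.6 in MYC_Twist1_HCC and 10.9 to 78.4 in MYC_HCC. Single endothelial markers did not all move with the sum. Of 5 tested, 1 was higher and 2 lower in MYC_Recur than in MYC_OFF, and 2 were higher and 2 lower in MYC_OFF than in MYC_HCC. In MYC_Twist1_OFF relative to MYC_Twist1_HCC, 2 were higher and 1 lower. The sum of 3 erythroid markers was 275.5 to 373 in MYC_Recur, 99.4 to 113.2 in MYC_Twist1_OFF, 98.9 to 147 in MYC_OFF, 134 to 250.04 in MYC_Twist1_HCC and 268 to 358 in MYC_HCC. Of 2 erythroid markers tested, 1 was higher and 0 lower in MYC_Recur than in MYC_OFF. In MYC_OFF relative to MYC_HCC 1 was higher and 1 lower, and in MYC_Twist1_OFF relative to MYC_Twist1_HCC 0 and 1. Of all tested genes, 37.5% were called higher and 12.0% lower in MYC_Recur than in MYC_OFF. The shares were 18.9% and 39.4% in MYC_OFF against MYC_HCC, and 13.1% and 33.5% in MYC_Twist1_OFF against MYC_Twist1_HCC. How the marker calls change with scaling is not given here. The part of these markers in the synthetase results was not tested, and in bulk tissue fewer cells of a type and less RNA per cell cannot be told apart.

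As deposited, called synthetase genes were mostly lower in the OFF groups than in the HCC groups and mostly higher in MYC_Recur than in MYC_OFF. Called genes as a whole leaned the same way. Members called the opposite way were 8.11%, 16.2% and 13.5% in the 3 comparisons that follow, beside 12.0%, 18.9% and 13.1% of all genes. In MYC_Recur against MYC_OFF, 20 members rose and 3 fell (limma, adjusted p under 0.05 over all 13253 tested genes), where 49.4% of all tested genes were called, 37.5% higher and 12.0% lower. By class, 11 cytosolic members rose and 2 fell, and 9 mitochondrial members rose and 1 fell. The median log2 fold change was 0.74 for cytosolic and 0.61 for mitochondrial members, beside 0.45 for all tested genes. In MYC_OFF against MYC_HCC, 6 members rose and 20 fell, where 58.3% of all genes were called, 18.9% higher and 39.4% lower; the medians were -0.98 for cytosolic, -0.68 for mitochondrial members and -0.38 for all genes. In MYC_Twist1_OFF against MYC_Twist1_HCC, 5 members rose and 20 fell, where 46.6% of all genes were called, 13.1% higher and 33.5% lower, with medians of -0.74, -0.40 and -0.32. MYC_Recur against MYC_OFF and MYC_OFF against MYC_HCC share the MYC_OFF libraries, so their mirrored counts do not stand apart from each other. These splits turn on scaling. With values scaled by the trimmed mean of M values, which brings the median of all genes to -0.01, 0.02 and -0.03, the calls were 11 higher and 8 lower in MYC_Recur against MYC_OFF, 8 higher and 16 lower in MYC_OFF against MYC_HCC, and 8 higher and 13 lower in MYC_Twist1_OFF against MYC_Twist1_HCC. Of all genes, 43.3% were then called in MYC_Recur against MYC_OFF (22.5% higher, 20.9% lower), 55.7% in MYC_OFF against MYC_HCC (27.9% and 27.8%) and 42.7% in MYC_Twist1_OFF against MYC_Twist1_HCC (20.4% and 22.3%). Scaling by the median of ratios gave 10 and 9, 8 and 14, and 8 and 11 higher and lower calls, the upper quartile gave 11 and 8, 8 and 13, and 8 and 11, and an equal total gave 19 and 4, 6 and 20, and 5 and 19. The shares of all genes called under these last scalings are not given here, so these counts have no background beside them. Groups whose libraries did not overlap were found for 23 members in MYC_Recur against MYC_OFF (19 above, 4 below), beside 53.4% of all genes. The counts were 5 above and 18 below in MYC_OFF against MYC_HCC (50.1% of all genes), 3 and 18 in MYC_Twist1_OFF against MYC_Twist1_HCC (50.5%), 5 and 4 in MYC_Recur against MYC_HCC (20.6%), 1 and 3 in MYC_Twist1_HCC against MYC_HCC (11.7%) and 0 and 0 in MYC_Twist1_OFF against MYC_OFF (4.35%).

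**Figure D1:**
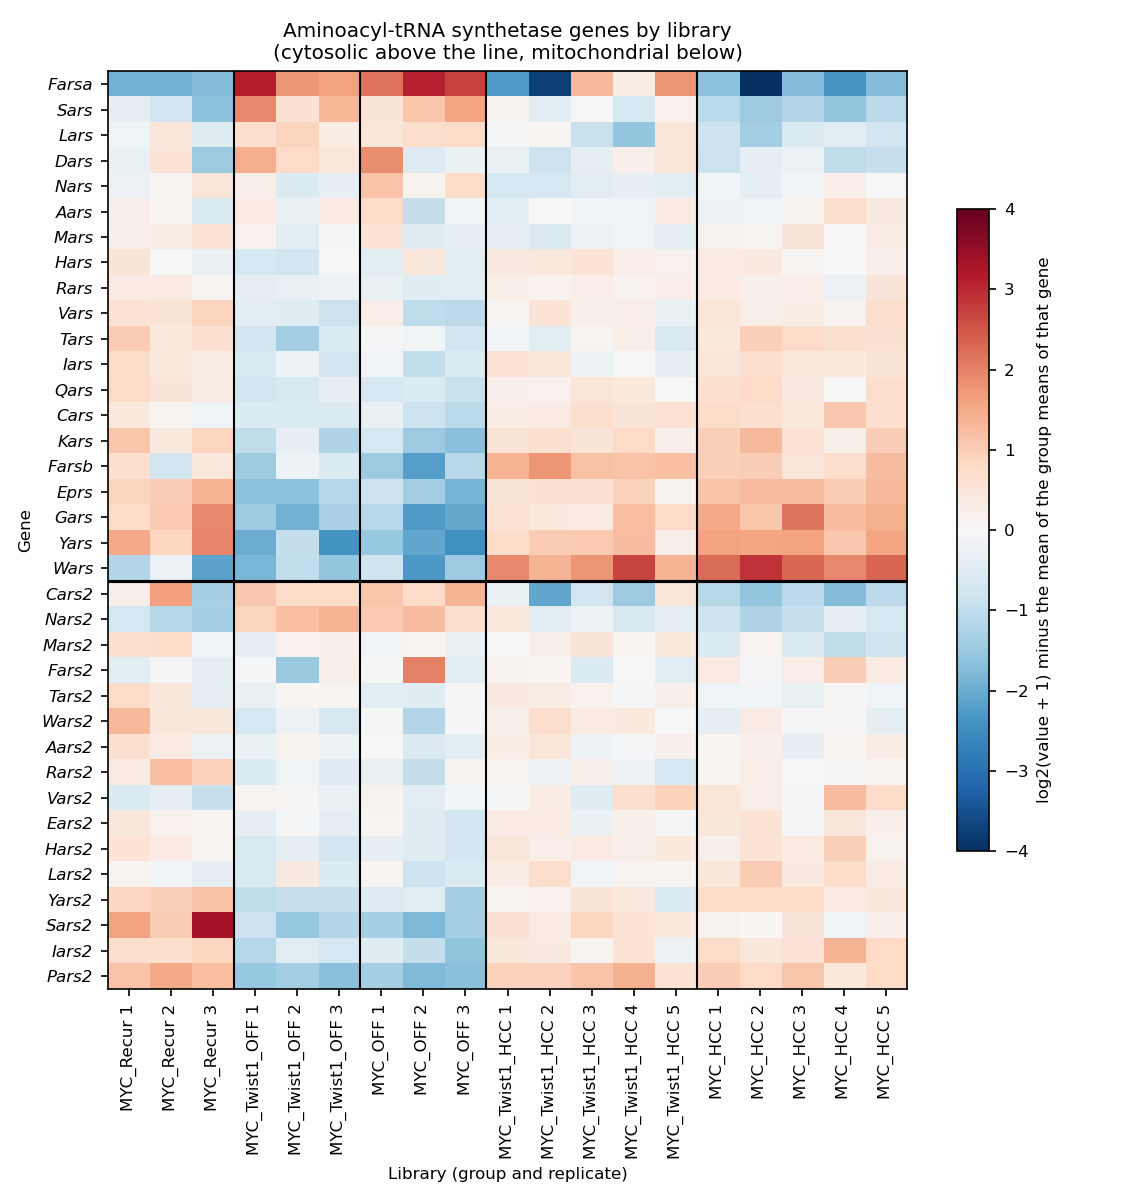
Heat map of the members reported singly (rows, cytosolic above mitochondrial) in the 19 libraries (columns, by group), in log2(value + 1) minus the mean of the gene's group means, red for higher and blue for lower. Yars, Gars, Eprs, Pars2 and Sars2 are blue in every MYC_Twist1_OFF and MYC_OFF library, and Farsa, Sars, Cars2 and Nars2 are red there.

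**Figure D2:**
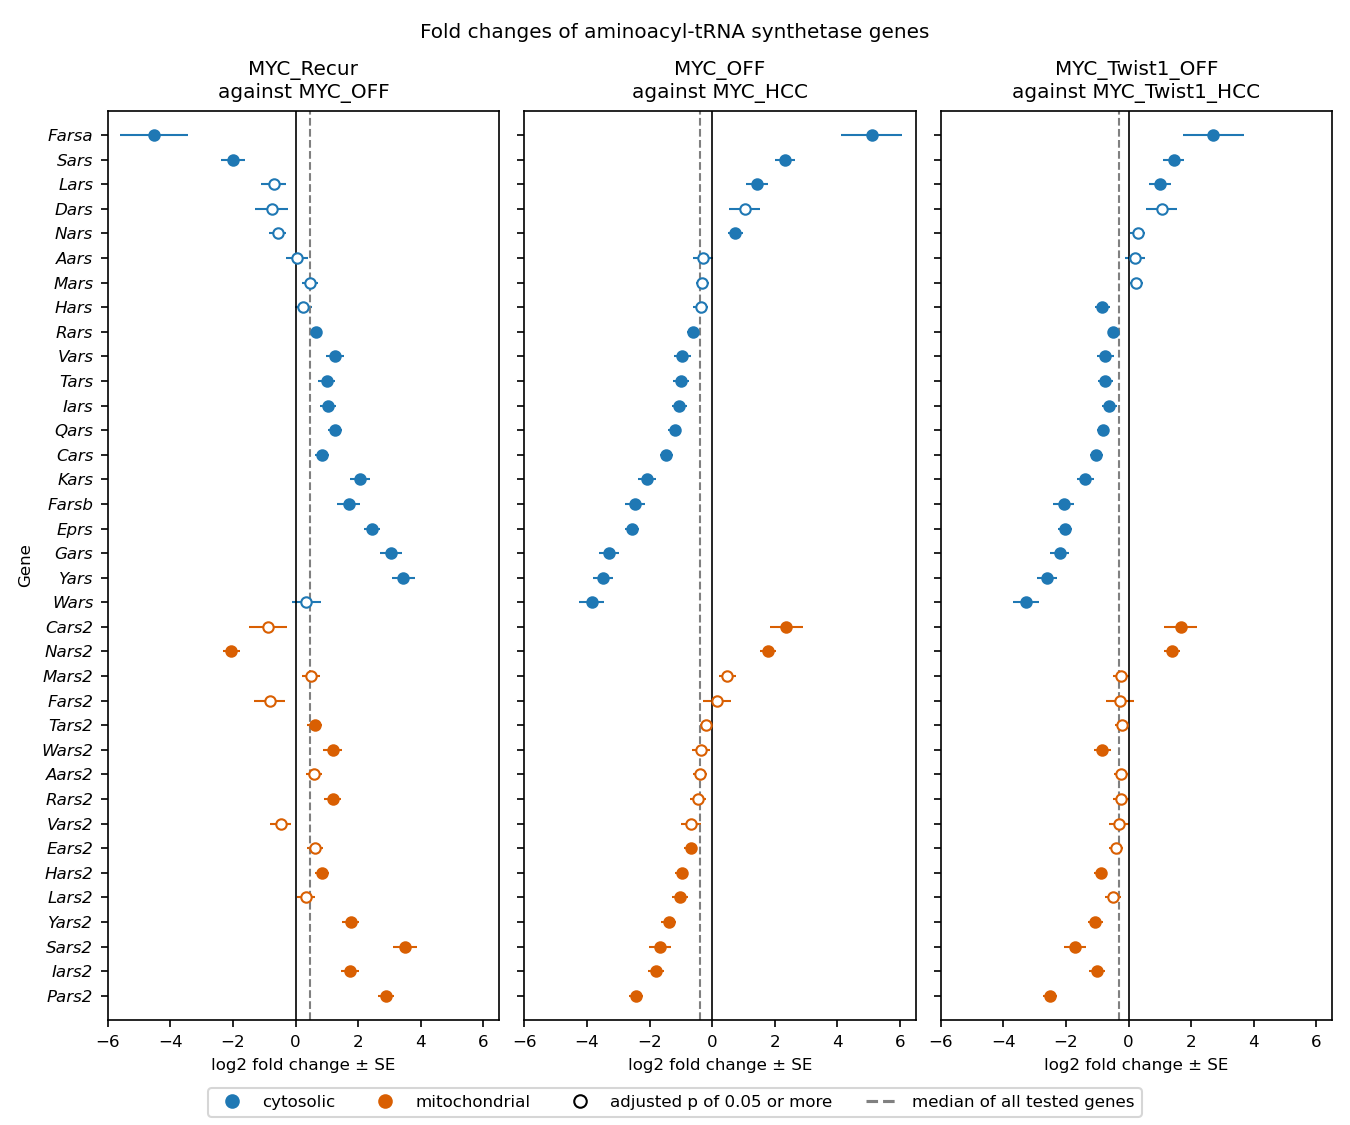
Log2 fold change of each member reported singly, with its SE (horizontal axis) in 3 comparisons, with filled points for called members, open points for the rest and a dashed line at the median of all tested genes. Most filled points lie above 0 in MYC_Recur against MYC_OFF and below 0 in MYC_OFF against MYC_HCC and in MYC_Twist1_OFF against MYC_Twist1_HCC, and Farsa, Sars and Nars2 lie on the other side in all 3.

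Among the cytosolic genes, those of tryptophan, tyrosine and glycine charging showed the largest falls in the OFF groups. Wars encodes tryptophanyl-tRNA synthetase. Wars stood at 1.76, 4.31 and 0.4 in MYC_Recur, 0.74, 2.13 and 1.09 in MYC_Twist1_OFF and 2.59, 0.25 and 1.25 in MYC_OFF. In HCC libraries Wars was at 22.2, 14.9, 20.2, 39 and 14.8 in MYC_Twist1_HCC and 28, 45.2, 29.1, 22.2 and 30.3 in MYC_HCC. Every library of both OFF groups, and every MYC_Recur library, lay below every HCC library. Wars fell in MYC_OFF relative to MYC_HCC (log2 fold change -3.85, SE 0.41, limma adjusted p = 6.49e-07) and in MYC_Twist1_OFF relative to MYC_Twist1_HCC (-3.28, SE 0.41, limma adjusted p = 9.54e-06). It was also lower in MYC_Recur than in MYC_HCC (-3.51, SE 0.41, limma adjusted p = 5.48e-05), and between MYC_Recur and MYC_OFF it gave 0.34 with overlapping libraries. Yars encodes the tyrosyl enzyme. Values of Yars were 40.8, 25.3 and 56 in MYC_Recur, 2.73, 6.48 and 1.82 in MYC_Twist1_OFF, and 4.16, 2.49 and 1.7 in MYC_OFF. They were 23.2, 28.6, 28.9, 33.5 and 16.1 in MYC_Twist1_HCC, and 43.7, 42.7, 43.2, 30.1 and 42.2 in MYC_HCC. MYC_Recur and both HCC groups lay above every OFF library. Yars rose in MYC_Recur relative to MYC_OFF (log2 fold change 3.44, SE 0.36, limma adjusted p = 1.72e-06), and fell in MYC_OFF relative to MYC_HCC (-3.49, SE 0.32, limma adjusted p = 1.83e-07) and in MYC_Twist1_OFF relative to MYC_Twist1_HCC (-2.62, SE 0.32, limma adjusted p = 7.84e-06).

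Gars encodes the glycyl enzyme of cytosol and mitochondria. The libraries held 85.5, 104 and 191 in MYC_Recur, 18.2, 12.5 and 19.7 in MYC_Twist1_OFF, and 22.5, 9.59 and 11.5 in MYC_OFF. The HCC libraries held 75.5, 65.7, 63.5, 117 and 87.5 in MYC_Twist1_HCC, and 144, 109, 224, 119.7 and 136 in MYC_HCC. No OFF library reached any library of the other 3 groups. Gars rose in MYC_Recur relative to MYC_OFF (log2 fold change 3.05, SE 0.35, limma adjusted p = 3.52e-06) and fell in MYC_OFF relative to MYC_HCC (-3.29, SE 0.31, limma adjusted p = 2.52e-07) and in MYC_Twist1_OFF relative to MYC_Twist1_HCC (-2.20, SE 0.31, limma adjusted p = 2.87e-05). Eprs encodes a bifunctional enzyme of the multisynthetase complex, which charges glutamate and proline tRNAs. Eprs stood at 98.7, 105 and 138 in MYC_Recur, 16.1, 16 and 23.1 in MYC_Twist1_OFF and 28.8, 19.4 and 13.7 in MYC_OFF. In HCC libraries Eprs was at 74.7, 80.4, 80.8, 98.9 and 58 in MYC_Twist1_HCC and 116, 125, 125, 107 and 129 in MYC_HCC. The OFF libraries again lay below all others. It rose in MYC_Recur relative to MYC_OFF (log2 fold change 2.45, SE 0.25, limma adjusted p = 1.44e-06) and fell in MYC_OFF relative to MYC_HCC (-2.55, SE 0.22, limma adjusted p = 1.24e-07) and in MYC_Twist1_OFF relative to MYC_Twist1_HCC (-2.03, SE 0.22, limma adjusted p = 2.67e-06). Tars, the threonyl enzyme, fell in MYC_OFF relative to MYC_HCC (log2 fold change -0.99, SE 0.25, limma adjusted p = 0.00221) and in MYC_Twist1_OFF relative to MYC_Twist1_HCC (-0.74, SE 0.25, limma adjusted p = 0.0204), and rose in MYC_Recur relative to MYC_OFF (1.0, SE 0.27, limma adjusted p = 0.0057). Values of Tars were 95.8, 62.4 and 76.5 in MYC_Recur, 28.1, 17.8 and 31.3 in MYC_Twist1_OFF, and 45.9, 43.5 and 27.4 in MYC_OFF. They were 44, 34.5, 51, 56.6 and 31 in MYC_Twist1_HCC, and 63.4, 93.4, 81.4, 74.1 and 72.9 in MYC_HCC. The MYC_Twist1_HCC libraries lay below the MYC_HCC libraries, and Tars was lower there (-0.84, SE 0.21, limma adjusted p = 0.0262). That call was lost without MYC_HCC 2, 3 or 5 or MYC_Twist1_HCC 1, 2 or 5, each left out alone.

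Called against the direction of their class were Farsa, Sars, Lars and Nars. Farsa encodes the catalytic subunit of cytosolic phenylalanyl-tRNA synthetase, whose other subunit is Farsb. The libraries held 38.1, 37.9 and 42.7 in MYC_Recur, 1301, 493 and 444 in MYC_Twist1_OFF, and 663, 1234 and 967 in MYC_OFF. The HCC libraries held 29.5, 9.84, 356, 177 and 495 in MYC_Twist1_HCC, and 45.8, 4.56, 42.6, 27.5 and 42.6 in MYC_HCC. The MYC_OFF libraries lay above every MYC_Recur and MYC_HCC library, and the 3 MYC_Twist1_OFF libraries overlapped the MYC_Twist1_HCC libraries, which spread widely. Farsa fell in MYC_Recur relative to MYC_OFF (log2 fold change -4.52, SE 1.08, limma adjusted p = 0.00221) and rose in MYC_OFF relative to MYC_HCC (5.10, SE 0.97, limma adjusted p = 0.000228). Its rise in MYC_Twist1_OFF relative to MYC_Twist1_HCC (2.71, SE 0.97, limma adjusted p = 0.029) was lost without MYC_Twist1_HCC 1 or 2 or MYC_Twist1_OFF 1 or 2. Sars encodes the cytosolic seryl enzyme. Sars stood at 99.2, 75.8 and 40.7 in MYC_Recur, 495, 198 and 331 in MYC_Twist1_OFF and 187, 279 and 389 in MYC_OFF. In HCC libraries Sars was at 144, 96.3, 132, 79.8 and 148 in MYC_Twist1_HCC and 60.4, 46.6, 57.4, 42.4 and 62.8 in MYC_HCC. Both OFF groups lay above every library of the other 3 groups. Sars fell in MYC_Recur relative to MYC_OFF (log2 fold change -2.0, SE 0.37, limma adjusted p = 0.000227), rose in MYC_OFF relative to MYC_HCC (2.33, SE 0.33, limma adjusted p = 1.07e-05) and rose in MYC_Twist1_OFF relative to MYC_Twist1_HCC (1.44, SE 0.33, limma adjusted p = 0.00168).

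Lars encodes the leucyl enzyme of the multisynthetase complex. Values of Lars were 66, 104 and 53.2 in MYC_Recur, 119, 138 and 92.3 in MYC_Twist1_OFF, and 105, 121 and 126 in MYC_OFF. They were 69.99, 78.8, 40.04, 25.1 and 104 in MYC_Twist1_HCC, and 42, 28.2, 50.00, 54.2 and 43.3 in MYC_HCC. The MYC_OFF libraries lay above the MYC_HCC libraries, while the MYC_Twist1 groups overlapped. Lars rose in MYC_OFF relative to MYC_HCC (log2 fold change 1.44, SE 0.36, limma adjusted p = 0.00219) and in MYC_Twist1_OFF relative to MYC_Twist1_HCC (1.01, SE 0.36, limma adjusted p = 0.0276), the second call being lost without MYC_Twist1_HCC 3 or 4 or MYC_Twist1_OFF 1 or 2. Nars, the asparaginyl enzyme, rose in MYC_OFF relative to MYC_HCC (log2 fold change 0.74, SE 0.24, limma adjusted p = 0.0126), a call lost without MYC_OFF 1. The libraries held 98.4, 124 and 162 in MYC_Recur, 136, 78.5 and 92.8 in MYC_Twist1_OFF, and 256, 129 and 195 in MYC_OFF. The HCC libraries held 71.5, 71.9, 85.8, 91.4 and 86.5 in MYC_Twist1_HCC, and 108, 89.6, 108, 141 and 115 in MYC_HCC. The MYC_OFF and MYC_HCC libraries overlapped. Dars, the aspartyl enzyme, gave 1.04 in MYC_OFF against MYC_HCC without passing the test, and with median of ratios or trimmed mean of M values scaling it was called higher at 1.63 and 1.55.

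The 2 genes of the phenylalanyl enzyme went opposite ways in MYC_Recur against MYC_OFF and in both OFF comparisons. Within a library the log2 ratio of Farsa to Farsb, with 1 added to each value, depends on scaling only through that 1. This ratio was chosen after the values were seen and is given as a description. It averaged -0.08 ± 0.74 in MYC_Recur, 4.79 ± 1.46 in MYC_Twist1_OFF, 6.14 ± 0.90 in MYC_OFF, 0.01 ± 2.62 in MYC_Twist1_HCC and -1.43 ± 1.37 in MYC_HCC (SD, n = 3, 3, 3, 5 and 5). The MYC_Twist1_HCC libraries ranged from -3.65 to 2.44. Farsb itself stood at 62.7, 22.3 and 51.9 in MYC_Recur, 13.7, 33.1 and 26.1 in MYC_Twist1_OFF and 13.5, 7.6 and 17.2 in MYC_OFF. In the HCC groups it was 104, 135, 88.5, 86.1 and 90.6 in MYC_Twist1_HCC, and 75.6, 77.1, 54.9, 62.9 and 91.2 in MYC_HCC. Farsb rose in MYC_Recur relative to MYC_OFF (log2 fold change 1.70, SE 0.37, limma adjusted p = 0.001) and fell in MYC_OFF relative to MYC_HCC (-2.46, SE 0.33, limma adjusted p = 6.65e-06) and in MYC_Twist1_OFF relative to MYC_Twist1_HCC (-2.07, SE 0.33, limma adjusted p = 8.01e-05).

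**Figure D3:**
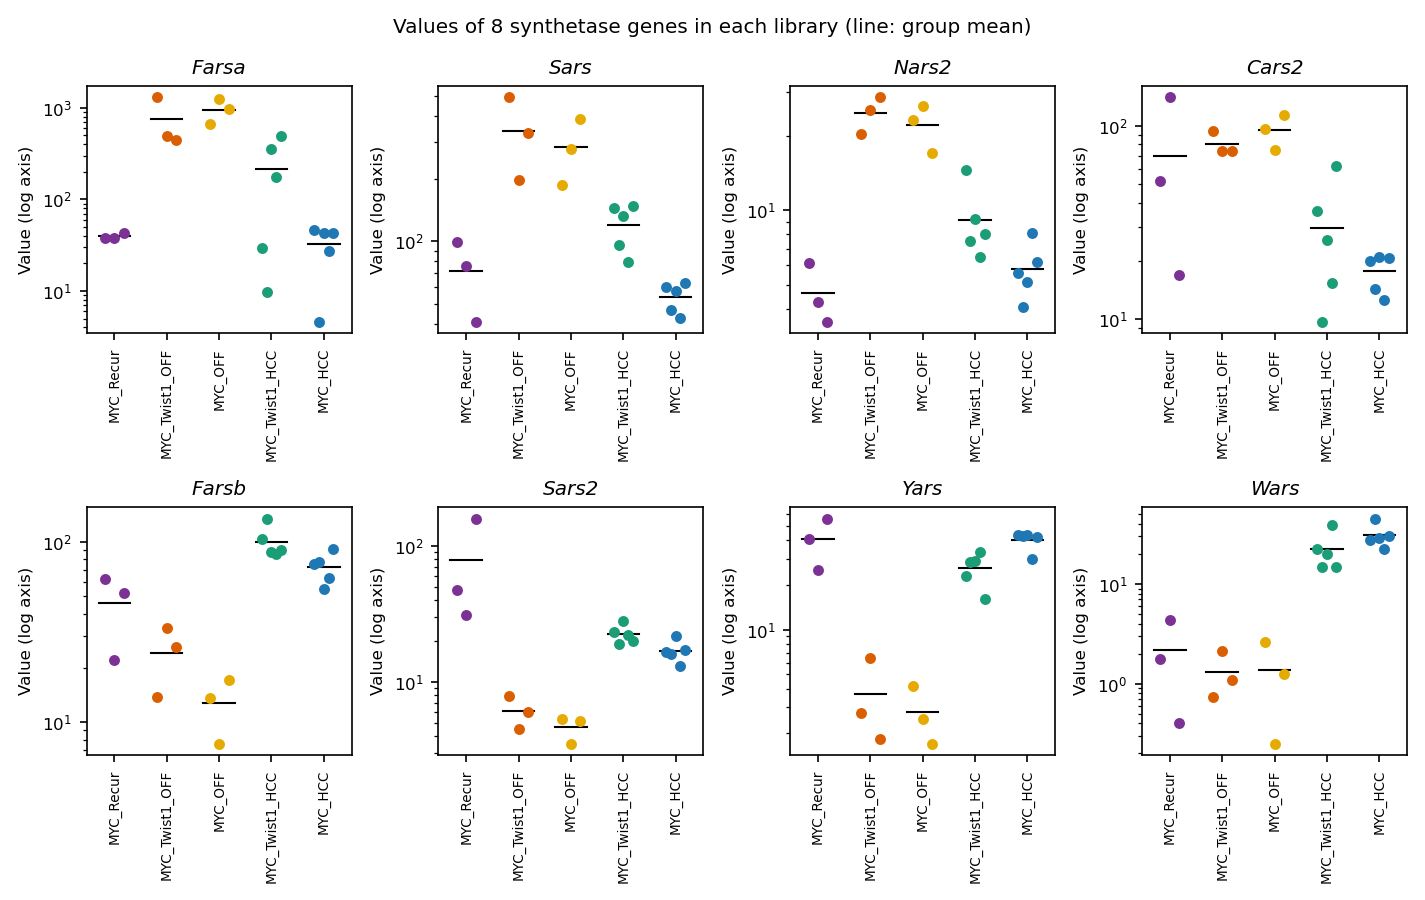
Deposited values (vertical log axis) of Farsa, Sars, Nars2, Cars2, Farsb, Sars2, Yars and Wars, with 1 point per library in each of the 5 groups and a line at the group mean. The means of Farsa, Sars, Nars2 and Cars2 are highest in the OFF groups, and those of Farsb, Sars2, Yars and Wars are lowest there.

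Mitochondrial genes with large falls in the OFF groups included Pars2, Sars2 and Iars2. Pars2 encodes the mitochondrial prolyl enzyme. Pars2 stood at 7.73, 10.3 and 8.07 in MYC_Recur, 0.36, 0.51 and 0.24 in MYC_Twist1_OFF and 0.56, 0.14 and 0.23 in MYC_OFF. In HCC libraries Pars2 was at 6.45, 6.41, 7.68, 9.52 and 4.68 in MYC_Twist1_HCC and 6.79, 5.83, 7.47, 4.24 and 5.8 in MYC_HCC. The OFF libraries lay below every other library, and all were under 0.6. Pars2 rose in MYC_Recur relative to MYC_OFF (log2 fold change 2.89, SE 0.25, limma adjusted p = 4.88e-07) and fell in MYC_OFF relative to MYC_HCC (-2.42, SE 0.22, limma adjusted p = 1.69e-07) and in MYC_Twist1_OFF relative to MYC_Twist1_HCC (-2.51, SE 0.22, limma adjusted p = 6.73e-07). Sars2 encodes the mitochondrial seryl enzyme. Values of Sars2 were 47.6, 31.1 and 158 in MYC_Recur, 7.85, 4.53 and 6.05 in MYC_Twist1_OFF, and 5.32, 3.52 and 5.14 in MYC_OFF. They were 23.1, 18.9, 28.1, 22 and 19.9 in MYC_Twist1_HCC, and 16.6, 15.9, 21.6, 13.2 and 17.1 in MYC_HCC. The OFF libraries were lowest and the MYC_Recur libraries highest, with MYC_Recur 3 far above the others. Sars2 rose in MYC_Recur relative to MYC_OFF (log2 fold change 3.49, SE 0.39, limma adjusted p = 2.94e-06) and fell in MYC_OFF relative to MYC_HCC (-1.66, SE 0.35, limma adjusted p = 0.000619) and in MYC_Twist1_OFF relative to MYC_Twist1_HCC (-1.72, SE 0.35, limma adjusted p = 0.000699). It was also higher in MYC_Recur than in MYC_HCC (1.83, SE 0.35, limma adjusted p = 0.00308), where the fold change was 1.16 without MYC_Recur 3.

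Iars2 encodes the mitochondrial isoleucyl enzyme. The libraries held 30.7, 30.1 and 34.5 in MYC_Recur, 7.93, 13.1 and 10.9 in MYC_Twist1_OFF, and 13.1, 9.15 and 5.37 in MYC_OFF. The HCC libraries held 25.6, 23.9, 20.2, 27.6 and 15.6 in MYC_Twist1_HCC, and 32.5, 25.8, 28.4, 48.7 and 32.7 in MYC_HCC. Every OFF library was below every HCC and MYC_Recur library. Iars2 rose in MYC_Recur relative to MYC_OFF (log2 fold change 1.75, SE 0.29, limma adjusted p = 8.59e-05) and fell in MYC_OFF relative to MYC_HCC (-1.80, SE 0.26, limma adjusted p = 1.38e-05) and in MYC_Twist1_OFF relative to MYC_Twist1_HCC (-1.02, SE 0.26, limma adjusted p = 0.004). Yars2, the mitochondrial tyrosyl enzyme, was among the 3 largest mitochondrial rises in MYC_Recur relative to MYC_OFF (log2 fold change 1.76, SE 0.27, limma adjusted p = 3.77e-05). Values of Yars2 were 67.3, 73.2 and 85.7 in MYC_Recur, 17.8, 19.4 and 19.3 in MYC_Twist1_OFF, and 25.9, 27 and 14.2 in MYC_OFF. They were 39.1, 42.6, 53.8, 48.8 and 25.2 in MYC_Twist1_HCC, and 62.1, 65.1, 64, 47.2 and 51.4 in MYC_HCC. All MYC_Recur libraries lay above all MYC_OFF libraries.

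Cars2 and Nars2 went against the other mitochondrial genes. Cars2 encodes the mitochondrial cysteinyl enzyme. Cars2 stood at 51.5, 140.5 and 16.8 in MYC_Recur, 94.3, 74 and 74.3 in MYC_Twist1_OFF and 96.7, 74.8 and 114 in MYC_OFF. In HCC libraries Cars2 was at 36.2, 9.63, 25.6, 15.3 and 62 in MYC_Twist1_HCC and 19.9, 14.3, 20.9, 12.5 and 20.7 in MYC_HCC. The OFF libraries lay above the HCC libraries of the same name, and MYC_Recur spread across both. Cars2 rose in MYC_OFF relative to MYC_HCC (log2 fold change 2.37, SE 0.53, limma adjusted p = 0.00103) and in MYC_Twist1_OFF relative to MYC_Twist1_HCC (1.67, SE 0.53, limma adjusted p = 0.0162), a call lost without MYC_Twist1_OFF 1. Nars2 encodes the mitochondrial asparaginyl enzyme. Values of Nars2 were 6.12, 4.26 and 3.53 in MYC_Recur, 20.3, 25.5 and 28.6 in MYC_Twist1_OFF, and 23.1, 26.4 and 17.1 in MYC_OFF. They were 14.6, 7.51, 9.21, 6.46 and 8.04 in MYC_Twist1_HCC, and 5.57, 4.05, 5.14, 8.08 and 6.18 in MYC_HCC. Both OFF groups lay above every library of the other 3 groups. Nars2 fell in MYC_Recur relative to MYC_OFF (log2 fold change -2.05, SE 0.28, limma adjusted p = 1.61e-05) and rose in MYC_OFF relative to MYC_HCC (1.78, SE 0.25, limma adjusted p = 1.21e-05) and in MYC_Twist1_OFF relative to MYC_Twist1_HCC (1.38, SE 0.25, limma adjusted p = 0.000274).

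The OFF differences with and without Twist1 in the name share no library, and their called members can be set side by side. Both set libraries without the re-analysed mark against libraries with it. Label and mark therefore cannot be told apart in either, nor in what they share. Of members called higher, 6 in the MYC groups and 5 in the MYC_Twist1 groups, 5 were in both, which is 83.3% and 100% of each list, Nars being in the MYC list alone. Of members called lower, 20 in each, 18 were in both, the same share of each list. Ears2 and Lars2 were in the MYC list alone and Hars and Wars2 in the MYC_Twist1 list alone. Of all tested genes, 18.9% were called higher and 39.4% lower in the MYC groups, and 13.1% and 33.5% in the MYC_Twist1 groups. How far the lists of all genes overlap is not given here, so the shared members have no background beside them. The interaction, which tests whether the OFF difference differs between the MYC_Twist1 and the MYC groups, called no member by limma, and 2 of the 37 had an unadjusted p under 0.05; 0.0981% of all tested genes were called, 0.0226% higher and 0.0755% lower. MYC_Twist1_OFF against MYC_OFF, where no library has that mark, called no member by limma (3 had an unadjusted p under 0.05). The median was 0.08 in both classes, and 0.00755% of all genes, 1 of 13253, were called.

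Between MYC_Recur and MYC_HCC, members were called at about the share of all tested genes. Wars and Vars2 fell and Sars2 and Mars2 rose, 4 of 37, where 10.8% of all genes were called, 6.90% higher and 3.93% lower. Vars2, the mitochondrial valyl enzyme, stood at 3.05, 3.61 and 2.23 in MYC_Recur and at 7.47, 6.32, 4.91, 13.2 and 9.11 in MYC_HCC. The groups did not overlap (log2 fold change -1.17, SE 0.31, limma adjusted p = 0.0208), and the call was lost without MYC_Recur 3. Mars2, the mitochondrial methionyl enzyme, stood at 25.6, 27.1 and 14.4 in MYC_Recur, 16.2, 18.9, 23.2, 17.1 and 21.1 in MYC_Twist1_HCC and 10.4, 17.5, 10.3, 7.34 and 8.68 in MYC_HCC. The groups overlapped. Mars2 was higher in MYC_Recur than in MYC_HCC (log2 fold change 0.99, SE 0.26, limma adjusted p = 0.0189), a call lost without MYC_Recur 1 or 2. In MYC_Twist1_HCC against MYC_HCC, 3 members were called, where 6.43% of all genes were, 3.20% higher and 3.23% lower. Sars rose (log2 fold change 1.11, SE 0.28, limma adjusted p = 0.0268), Mars2 rose (0.82, SE 0.22, limma adjusted p = 0.035) and Tars fell with the values above. With 1 library left out, the call of Sars was lost without MYC_HCC 2 or 4 or MYC_Twist1_HCC 1, 3 or 5, and that of Mars2 without MYC_HCC 1, 3, 4 or 5 or MYC_Twist1_HCC 1, 2, 3 or 5. Leaving out 1 library at a time gave 0 to 6 called members, with 0 without MYC_Twist1_HCC 1 or 5, 1 without MYC_HCC 2, 3, 4 or 5 or MYC_Twist1_HCC 3, 5 without MYC_Twist1_HCC 4 and 6 without MYC_OFF 1, and 0 without MYC_HCC 4 and 5 together.

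The cytosolic and mitochondrial classes were compared by the difference of their median log2 fold changes, as a description with no test. It was 0.13 in MYC_Recur against MYC_OFF, 0.00 in MYC_Twist1_OFF against MYC_OFF, -0.30 in MYC_OFF against MYC_HCC, -0.34 in MYC_Twist1_OFF against MYC_Twist1_HCC, -0.18 in MYC_Recur against MYC_HCC, -0.21 in MYC_Twist1_HCC against MYC_HCC and 0.39 in the interaction. In each library the cytosolic median, with each gene set against the mean of its group means, minus the mitochondrial one was -0.17, -0.10 and 0.38 in MYC_Recur, -0.04, -0.37 and 0.07 in MYC_Twist1_OFF, and -0.09, -0.23 and -0.20 in MYC_OFF. It was -0.09, -0.06, 0.13, 0.05 and 0.01 in MYC_Twist1_HCC and 0.25, 0.26, 0.40, -0.08 and 0.37 in MYC_HCC. All 3 MYC_OFF libraries were below 0, and 4 of the 5 MYC_HCC libraries were above it, MYC_HCC 4 being the exception. The SD within groups, pooled, was 0.18. The MYC_Recur against MYC_OFF difference changes sign, to -0.07, without MYC_OFF 3. The MYC_OFF against MYC_HCC difference was -0.50 without MYC_HCC 4 and -0.06 without MYC_OFF 3, and that of the interaction was 0.19 without MYC_Twist1_OFF 3 and 0.61 without MYC_OFF 1. Of the 14 amino acids with one enzyme gene in each class, MYC_OFF against MYC_HCC had both called lower for 2 (Iars and Iars2, Yars and Yars2), both higher for 1 (Nars and Nars2) and opposite calls for 3 (Cars and Cars2, Lars and Lars2, Sars and Sars2), with 1 of the pair called for 6 and neither for 2. MYC_Twist1_OFF against MYC_Twist1_HCC had 4 both lower, 2 opposite, 6 with 1 called and 2 with neither. MYC_Recur against MYC_OFF had 4 both higher, 1 opposite (Sars and Sars2), 6 with 1 called and 3 with neither. Of all tested genes, 58.3%, 46.6% and 49.4% were called either way in these comparisons, in the order given. Counts for pairs of other genes are not given here, so the pair counts have no background beside them. Some calls within the pairs turn on scaling, as given below.

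**Figure D4:**
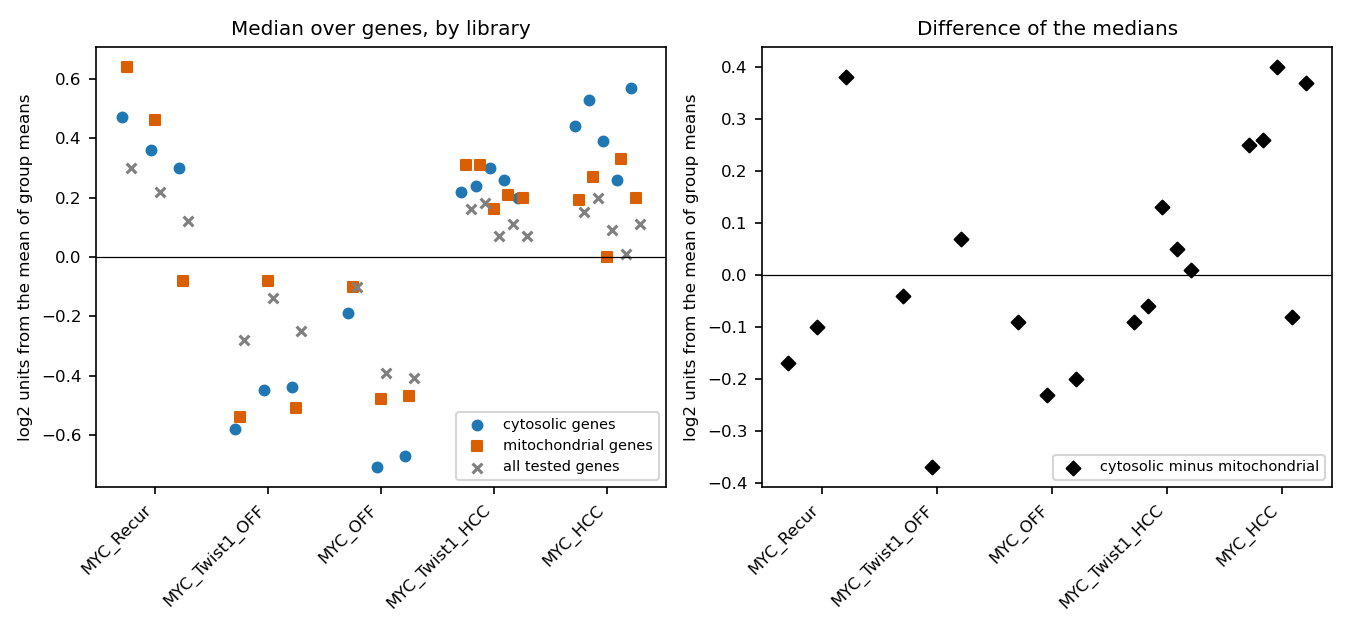
Left, the median over cytosolic members, mitochondrial members and all tested genes in each library, in log2 units from the mean of each gene's group means; right, the cytosolic minus the mitochondrial median. The right panel spans -0.37 to 0.40 over the 19 libraries, and the 3 MYC_OFF libraries lie below 0.

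By role within the cytosol, the 8 genes of the multisynthetase complex had 5 rises and 0 falls in MYC_Recur against MYC_OFF, and the other 12 had 6 rises and 2 falls, where 37.5% of all tested genes were called higher and 12.0% lower. With trimmed mean of M values scaling these counts were 3 and 2 for the complex and 4 and 3 for the others, where 22.5% of all genes were called higher and 20.9% lower. In MYC_OFF against MYC_HCC the complex had 1 rise and 5 falls and the others 3 rises and 7 falls, where 18.9% of all genes were called higher and 39.4% lower, and with that scaling 2 and 4, and 3 and 5, where 27.9% were called higher and 27.8% lower. The 12 cytosolic genes on a list of known Atf4 targets had 6 rises and 1 fall in MYC_Recur against MYC_OFF, and the other 8 had 5 rises and 1 fall. Under median of ratios, trimmed mean of M values and upper quartile scaling alike, the Atf4 list had 3 rises and 3 falls there. Of all genes, 22.5% were called higher and 20.9% lower there with trimmed mean of M values scaling. The shares under the other scalings are not given here. In MYC_OFF against MYC_HCC the Atf4 list had 3 rises and 7 falls and the other 8 had 1 and 5, and with trimmed mean of M values scaling 3 and 6, and 2 and 3. Of the complex's 3 scaffold genes, Aimp1 and Eef1e1 went opposite ways. Aimp2 was not called in MYC_Recur against MYC_OFF or in MYC_OFF against MYC_HCC. Aimp1 averaged 39.3 ± 10.5 in MYC_Recur and 494 ± 114 in MYC_OFF (log2 fold change -3.63, limma adjusted p = 5.93e-06), and 494 ± 114 in MYC_OFF against 71.4 ± 31.5 in MYC_HCC (log2 fold change 2.89, limma adjusted p = 9.44e-06). Eef1e1 averaged 108 ± 28 in MYC_Recur and 16.1 ± 3.78 in MYC_OFF (log2 fold change 2.66, limma adjusted p = 5.79e-05), and was lower in MYC_OFF than in MYC_HCC (log2 fold change -2.28, limma adjusted p = 6.26e-05). By structural class, class I members, whose active site is a Rossmann fold, had 2 rises and 12 falls in MYC_OFF against MYC_HCC among 19, and class II members 4 rises and 8 falls among 18, beside the shares of all genes above. Eprs, which charges both glutamate and proline tRNAs, is counted in class I alone, while the prolyl gene Pars2 is counted in class II. Median of ratios scaling gave 3 and 8 for class I and 5 and 6 for class II, and the shares of all genes under that scaling are not given here.

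The other cytosolic members are given as group means ± SD, with n = 5 in each HCC group and n = 3 in each of the others. Aars, the alanyl enzyme, averaged 18.6 ± 4.93 in MYC_Recur, 21.8 ± 4.88 in MYC_Twist1_OFF, 20.01 ± 12 in MYC_OFF, 18.7 ± 3.85 in MYC_Twist1_HCC and 22.6 ± 6.33 in MYC_HCC. Cars, the cysteinyl enzyme, averaged 9.92 ± 2.32 in MYC_Recur, 5.71 ± 0.15 in MYC_Twist1_OFF, 5.13 ± 1.84 in MYC_OFF, 12.8 ± 1.5 in MYC_Twist1_HCC and 15.6 ± 2.74 in MYC_HCC. Hars, the histidyl enzyme, averaged 88.3 ± 24.8 in MYC_Recur, 59.4 ± 20.2 in MYC_Twist1_OFF, 76.3 ± 30.7 in MYC_OFF, 104 ± 10.8 in MYC_Twist1_HCC and 93.7 ± 10.6 in MYC_HCC. Iars, the isoleucyl enzyme of the complex, averaged 57.2 ± 9.51 in MYC_Recur, 28.3 ± 5.84 in MYC_Twist1_OFF, 28.1 ± 8.86 in MYC_OFF, 45 ± 13.4 in MYC_Twist1_HCC and 57.4 ± 4.63 in MYC_HCC. Of these 4, Iars and Cars rose in MYC_Recur relative to MYC_OFF and fell in both OFF comparisons, while Aars gave no call in any comparison. Kars, the lysyl enzyme of the complex, averaged 179.6 ± 43.5 in MYC_Recur, 57.9 ± 19.8 in MYC_Twist1_OFF, 43.2 ± 16.3 in MYC_OFF, 148 ± 22.1 in MYC_Twist1_HCC and 183 ± 49.7 in MYC_HCC. Mars, the methionyl enzyme of the complex, averaged 32.3 ± 4.29 in MYC_Recur, 23.5 ± 4.79 in MYC_Twist1_OFF, 24.5 ± 10.8 in MYC_OFF, 19.5 ± 2.34 in MYC_Twist1_HCC and 29.1 ± 4.4 in MYC_HCC. Qars, the glutaminyl enzyme of the complex, averaged 63.6 ± 10.9 in MYC_Recur, 29.2 ± 4.61 in MYC_Twist1_OFF, 26.1 ± 3.23 in MYC_OFF, 52.3 ± 7.49 in MYC_Twist1_HCC and 62.1 ± 12.8 in MYC_HCC. Rars, the arginyl enzyme of the complex, averaged 103 ± 9.93 in MYC_Recur, 70.8 ± 4.24 in MYC_Twist1_OFF, 65.7 ± 4.59 in MYC_OFF, 101 ± 4.21 in MYC_Twist1_HCC and 103 ± 19.1 in MYC_HCC. Kars, Qars and Rars rose in MYC_Recur relative to MYC_OFF and fell in both OFF comparisons, and Mars was not called. Under median of ratios scaling the fold change of Rars in MYC_Recur against MYC_OFF, 0.64 as deposited, was -0.06. Vars, the valyl enzyme, averaged 52.6 ± 7.28 in MYC_Recur, 21.6 ± 3.45 in MYC_Twist1_OFF, 23.5 ± 14.1 in MYC_OFF, 37.2 ± 7.65 in MYC_Twist1_HCC and 42.7 ± 6.88 in MYC_HCC. Dars, the aspartyl enzyme of the complex, averaged 99.3 ± 62.7 in MYC_Recur, 221 ± 81.6 in MYC_Twist1_OFF, 196 ± 189 in MYC_OFF, 106 ± 37.6 in MYC_Twist1_HCC and 72.4 ± 18.4 in MYC_HCC. Vars rose and fell in the same pattern, Dars was not called, and Hars fell in the MYC_Twist1 pair. In that pair the falls of Rars and Hars were lost without MYC_Twist1_OFF 1 or 2, that of Tars without MYC_Twist1_HCC 4 or MYC_Twist1_OFF 2, that of Iars without MYC_Twist1_HCC 1 or 2 or MYC_Twist1_OFF 1 or 3, and that of Vars without MYC_Twist1_HCC 2 or 4 or MYC_Twist1_OFF 2 or 3.

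The other mitochondrial members are given in the same way, each with the amino acid it charges. Aars2 (alanine) averaged 8.77 ± 2.86 in MYC_Recur, 6.48 ± 1.22 in MYC_Twist1_OFF, 5.44 ± 1.28 in MYC_OFF, 7.95 ± 1.68 in MYC_Twist1_HCC and 7.43 ± 1.31 in MYC_HCC. Ears2 (glutamate) averaged 7.16 ± 1.13 in MYC_Recur, 4.69 ± 0.74 in MYC_Twist1_OFF, 4.5 ± 1.77 in MYC_OFF, 6.55 ± 1.29 in MYC_Twist1_HCC and 7.71 ± 1.42 in MYC_HCC. Fars2 (phenylalanine) averaged 6.66 ± 1.03 in MYC_Recur, 6.88 ± 4.07 in MYC_Twist1_OFF, 17.1 ± 17.1 in MYC_OFF, 7.65 ± 1.84 in MYC_Twist1_HCC and 11.5 ± 3.59 in MYC_HCC. Of these 3, Ears2 fell in MYC_OFF relative to MYC_HCC, a call lost without MYC_OFF 3, and the others were not called. Hars2 (histidine) averaged 9.38 ± 1.69 in MYC_Recur, 4.6 ± 0.76 in MYC_Twist1_OFF, 4.74 ± 0.87 in MYC_OFF, 9.32 ± 0.68 in MYC_Twist1_HCC and 10.4 ± 2.82 in MYC_HCC. Lars2 (leucine) averaged 11 ± 1.76 in MYC_Recur, 10.2 ± 4.51 in MYC_Twist1_OFF, 8.77 ± 3.24 in MYC_OFF, 14.3 ± 3.48 in MYC_Twist1_HCC and 18.4 ± 4.08 in MYC_HCC. Rars2 (arginine) averaged 46.8 ± 13.5 in MYC_Recur, 19.1 ± 3.1 in MYC_Twist1_OFF, 20.5 ± 7.86 in MYC_OFF, 23.2 ± 5.47 in MYC_Twist1_HCC and 27.1 ± 2.14 in MYC_HCC. Hars2 rose in MYC_Recur relative to MYC_OFF and fell in both OFF comparisons, Lars2 fell in MYC_OFF relative to MYC_HCC, and Rars2 rose in MYC_Recur relative to MYC_OFF. Tars2 (threonine) averaged 48.6 ± 18.2 in MYC_Recur, 37.3 ± 5.17 in MYC_Twist1_OFF, 30.1 ± 4.73 in MYC_OFF, 43.4 ± 4.48 in MYC_Twist1_HCC and 34.3 ± 3.13 in MYC_HCC. Wars2 (tryptophan) averaged 12.5 ± 4.83 in MYC_Recur, 4.51 ± 1.03 in MYC_Twist1_OFF, 5.05 ± 2.23 in MYC_OFF, 8.92 ± 1.88 in MYC_Twist1_HCC and 6.45 ± 1.59 in MYC_HCC. Wars2 rose in MYC_Recur relative to MYC_OFF and fell in the MYC_Twist1 pair, a call lost without MYC_Twist1_OFF 1 or 3. The rise of Tars2 in MYC_Recur (0.61) was lost without MYC_HCC 1, MYC_OFF 1 or 2 or MYC_Recur 1 or 2, each left out alone. It was -0.08 and -0.02 under median of ratios and upper quartile scaling. Within groups, the coefficient of variation of a member had a median between 18.1% and 37.5% and reached 100.2%.

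Many of these smaller differences turn on the scaling of the libraries. Under median of ratios, trimmed mean of M values and upper quartile scaling alike, the rises of Cars, Iars, Rars, Tars, Hars2, Rars2, Tars2 and Wars2 in MYC_Recur against MYC_OFF were not called, and Dars, Lars, Nars, Fars2 and Vars2 were called lower there. In MYC_OFF against MYC_HCC the falls of Rars, Tars, Vars and Ears2 were not called under these 3 scalings, and Dars and Mars2 were called higher. In MYC_Twist1_OFF against MYC_Twist1_HCC the falls of Hars, Iars, Qars, Rars, Tars, Vars and Wars2 were not called under them, and Dars, Mars and Nars were called higher. Some calls were lost under only part of the 3: that of Vars in MYC_Recur against MYC_OFF under median of ratios, that of Iars in MYC_OFF against MYC_HCC under upper quartile, and those of Hars2 and Lars2 in MYC_OFF against MYC_HCC and of Hars2 and Iars2 in the MYC_Twist1 pair under median of ratios and upper quartile. The calls of Yars, Gars, Eprs, Farsa, Farsb, Sars, Pars2, Sars2 and Nars2 in the 3 comparisons, and those of Wars in both OFF comparisons, were made under all 3 scalings.

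Promoter sequence is shown for Gars, Yars, Iars and Farsb, called lower in MYC_OFF than in MYC_HCC and holding a searched motif, and for Farsa and Sars, called higher there. They are RefSeq promoters of build GRCm38.p6, 250 bases before the annotated start and 50 after it, and capitals mark 2 motifs searched on both strands. These are CACGTG, the E-box that MYC is known to bind, and TGATGNAA, the core of the amino acid response element. Gars lies at chr6:55037751-55038050 on the plus strand, Yars at chr4:129189653-129189952 on the plus strand, Iars at chr13:49681880-49682179 on the plus strand, Farsb at chr1:78488848-78489147 on the minus strand, Farsa at chr8:84856736-84857035 on the plus strand and Sars at chr3:108445210-108445509 on the minus strand.
Gars: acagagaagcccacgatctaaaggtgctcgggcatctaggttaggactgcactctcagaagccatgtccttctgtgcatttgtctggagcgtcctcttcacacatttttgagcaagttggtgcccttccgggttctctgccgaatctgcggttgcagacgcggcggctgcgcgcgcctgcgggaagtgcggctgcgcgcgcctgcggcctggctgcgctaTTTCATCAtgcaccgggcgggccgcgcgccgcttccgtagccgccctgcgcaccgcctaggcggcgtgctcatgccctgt
Yars: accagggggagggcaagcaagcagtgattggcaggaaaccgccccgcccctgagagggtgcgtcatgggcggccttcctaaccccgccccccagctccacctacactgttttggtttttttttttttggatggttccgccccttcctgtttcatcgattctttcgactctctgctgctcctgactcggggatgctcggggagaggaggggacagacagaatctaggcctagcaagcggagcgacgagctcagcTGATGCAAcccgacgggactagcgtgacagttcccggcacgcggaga
Iars: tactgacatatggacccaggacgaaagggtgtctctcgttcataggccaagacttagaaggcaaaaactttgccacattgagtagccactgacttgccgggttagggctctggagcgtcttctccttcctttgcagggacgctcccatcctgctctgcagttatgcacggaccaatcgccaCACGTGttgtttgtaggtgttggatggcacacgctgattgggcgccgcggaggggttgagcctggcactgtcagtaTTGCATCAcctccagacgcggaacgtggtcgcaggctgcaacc
Farsb: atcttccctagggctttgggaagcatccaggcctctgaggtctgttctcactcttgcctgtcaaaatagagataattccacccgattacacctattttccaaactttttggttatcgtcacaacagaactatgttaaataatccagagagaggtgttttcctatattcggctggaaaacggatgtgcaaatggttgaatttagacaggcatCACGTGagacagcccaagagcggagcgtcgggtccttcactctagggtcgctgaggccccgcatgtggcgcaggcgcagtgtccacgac
Farsa: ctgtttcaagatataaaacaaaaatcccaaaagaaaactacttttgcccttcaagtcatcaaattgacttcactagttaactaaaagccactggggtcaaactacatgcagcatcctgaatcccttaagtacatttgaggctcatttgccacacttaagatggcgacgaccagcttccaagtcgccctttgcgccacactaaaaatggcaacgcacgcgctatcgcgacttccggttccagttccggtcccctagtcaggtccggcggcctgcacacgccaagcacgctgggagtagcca
Sars: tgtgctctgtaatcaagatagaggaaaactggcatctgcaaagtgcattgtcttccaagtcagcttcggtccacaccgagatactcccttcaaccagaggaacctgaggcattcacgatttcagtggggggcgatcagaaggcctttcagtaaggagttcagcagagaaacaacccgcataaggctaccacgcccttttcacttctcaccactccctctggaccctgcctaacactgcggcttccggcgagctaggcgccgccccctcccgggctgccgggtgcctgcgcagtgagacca
The response element core lies 30 bases before the start in Gars, and 3 and 7 bases after it in Yars and Iars. An E-box lies 69 bases before the start in Iars and 39 before it in Farsb. The windows of Farsa and Sars hold neither. Of the 26 members with a RefSeq promoter, 5 (19.2%) hold an E-box (Aars, Ears2, Farsb, Iars and Tars), beside 7.17% of 32544 promoters of the same length, and 5 (19.2%) hold the response element core (Aars, Gars, Iars, Tars and Yars), beside 3.91%. Each motif was in 4 of the 13 promoters of members called lower in MYC_OFF relative to MYC_HCC, in 0 of 4 called higher and in 1 of 9 not called. Eprs, Kars, Qars, Iars2, Lars2, Sars2 and Yars2, all called lower there, hold neither motif in their windows. The lower members shown were chosen for a motif, so the sequences shown do not compare the directions. A match is a description of these letters and not a site.

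Genes around the synthetases were followed on 4 lists of known function: other charging factors, tRNA maturation, RNA polymerase III, and the amino acid response. In MYC_OFF against MYC_HCC, 8 of 12 other charging and editing factors fell and 1 rose, 26 of 45 tRNA maturation genes fell and 5 rose, 15 of 24 RNA polymerase III genes fell and 3 rose, and 19 of 37 tested amino acid response genes fell and 2 rose. Of all tested genes 39.4% fell and 18.9% rose there. The median log2 fold changes were -0.98 for the charging factors, -0.97 for tRNA maturation, -0.82 for RNA polymerase III and -0.80 for the amino acid response, beside -0.38 for all tested genes. These splits turn on scaling as well. Median of ratios scaling, under which the median of all genes was 0.08, gave 4 falls and 2 rises for the charging factors, 18 and 10 for tRNA maturation, 9 and 5 for RNA polymerase III and 12 and 6 for the amino acid response. The shares of all genes called under that scaling are not given here, so these counts have no background beside them. In MYC_Recur against MYC_OFF, 7 charging factors rose and 0 fell, 28 tRNA maturation genes rose and 3 fell, 13 RNA polymerase III genes rose and 2 fell, and 20 amino acid response genes rose and 3 fell, where 37.5% of all tested genes rose and 12.0% fell. With trimmed mean of M values scaling the counts were 5 and 1 for the charging factors, 18 and 6 for tRNA maturation, 6 and 5 for RNA polymerase III and 12 and 3 for the amino acid response, where 22.5% of all genes were called higher and 20.9% lower. Gatc, a subunit of the mitochondrial amidotransferase, averaged 3.84 ± 2.09 in MYC_OFF and 35.4 ± 4.17 in MYC_HCC (log2 fold change -2.99, limma adjusted p = 1.67e-07). Trnt1, which adds the CCA end to tRNAs, averaged 8.63 ± 4.66 in MYC_OFF and 61.9 ± 20.2 in MYC_HCC (log2 fold change -2.75, limma adjusted p = 1.13e-06). Trmt6, a subunit of a tRNA methyltransferase, averaged 0.74 ± 0.67 in MYC_OFF and 21.8 ± 3.19 in MYC_HCC (log2 fold change -3.77, limma adjusted p = 3.15e-07). Asns, which makes asparagine and is an Atf4 target, averaged 21.3 ± 4.39 in MYC_OFF and 124 ± 25 in MYC_HCC (log2 fold change -2.48, limma adjusted p = 3.07e-06). Against the lists' direction, Mthfd2, a mitochondrial folate enzyme, averaged 979.5 ± 806 in MYC_OFF and 14.5 ± 9.79 in MYC_HCC (log2 fold change 6.0, limma adjusted p = 0.000408), with an SD near its mean. Pycr1, which makes proline, averaged 34.7 ± 4.58 in MYC_OFF and 2.03 ± 0.66 in MYC_HCC (log2 fold change 3.58, limma adjusted p = 5.29e-07). Polr3c, a subunit of RNA polymerase III, averaged 986 ± 357 in MYC_OFF and 29.96 ± 12.9 in MYC_HCC (log2 fold change 5.13, limma adjusted p = 5.29e-07).

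Some members share exonic bases with a neighbour, by the GENCODE annotation of GRCm38, and whether counting used strand is not given in the sources used here. Hars and Hars2 overlap by 195 bases on opposite strands, and Aars and Exosc6 by 1326 bases on the same strand. Iars2 shares 2034 bases with Rab3gap2 on the opposite strand. Fars2 shares 616 bases, Cars2 422 with Naxd, Farsb 248 with Sgpp2, Ears2 89 with Ubfd1, Mars 68 with Ddit3 and Yars 30, all on opposite strands. Unless strand was used in counting, reads in the bases shared by partners on opposite strands cannot be told apart. For Aars and Exosc6, on the same strand, counting by strand would not separate them either. Farsa, Sars, Gars, Eprs, Wars, Sars2 and Pars2 share none with a coding gene.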

How the data were processed

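RNA-seq was made from flash-frozen liver tumors in 19 libraries, per the labels. The submitters' processing notes name mm10 and the tools DESeq2, featureCounts, Picard, STAR and Trimmomatic, while tool versions, settings and normalization formula were not given in the sources used here. Signal values, normalized, were deposited by the authors with 2 decimals, not whole numbers, so sequencing depth is unknown and no counting interval or detection floor can be given. The table held 19511 rows, of which 25 were bare numbers, named no gene and were left out. Values were used as deposited. Genes at 1 or more in at least 3 libraries were tested (13253). A single limma fit (version 3.58.1, R 4.3.3, intensity trend on) of the 5 group means to log2(value + 1) left 14 residual degrees of freedom. The p-values are two-sided and adjusted by Benjamini-Hochberg per comparison over all tested genes, and fold changes on the log2(value + 1) scale understate the change of low genes. Members, lists and tests were chosen with earlier results of these data known, so no p is adjusted over a list. Members named with library values are the 3 largest called rises and falls per class and comparison and calls against their class; 1 member enters the counts and medians but is not reported here by itself. Alternatives covered the pseudocount, filter, trend, scaling, samples in the fit, left-out libraries and a replicate block.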

Additional observations from a re-analysis of the deposited data

Results flagged for a closer look

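In MYC_HCC, Rars2 in library 2 stood apart as the highest at 30.75, where the other 4 libraries held 25.2 to 26.7. Yars in MYC_HCC 4 stood apart as the lowest at 30.1, against 42.2 to 43.7 in the other 4. Of 74 gene-and-group sets of 5 libraries tested for a single library far from the rest, these 2 passed, and chance flags about 1 in 20 such sets.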

How the results depend on the processing

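Of the calls, 21 of 23 in MYC_Recur against MYC_OFF, 24 of 26 in MYC_OFF against MYC_HCC, 16 of 25 in MYC_Twist1_OFF against MYC_Twist1_HCC, 2 of 4 in MYC_Recur against MYC_HCC and 0 of 3 in MYC_Twist1_HCC against MYC_HCC kept their side with each library left out alone. Under every alternative, 13, 18, 13, 2 and 0 did. Scaling turned the sign of Rars in MYC_Recur against MYC_OFF to -0.06 (median of ratios), and of Tars2 to -0.08 (median of ratios) and -0.02 (upper quartile). The class difference in MYC_OFF against MYC_HCC was -0.51 without MYC_HCC 4 and 5, and -0.50 to -0.06 with 1 library left out. In MYC_Recur against MYC_OFF it was -0.07 to 0.15 with 1 left out, and in the interaction 0.19 to 0.61. Members called in MYC_Recur against MYC_HCC numbered 2 without MYC_HCC 4 and 5; leaving out 1 library gave 3 to 6. In MYC_Twist1_HCC against MYC_HCC the count was 6 with the compared groups only, 0 without MYC_HCC 4 and 5, and 0 to 6 with 1 library left out. Deviations of same-numbered libraries correlated from -0.214 to 0.384. Libraries with unlike numbers were not compared, so these values cannot decide whether the replicate numbers pair the samples. With the replicate number as a block, 23, 26, 25, 3 and 3 members were called in the order above, and 0 in MYC_Twist1_OFF against MYC_OFF and in the interaction. The cause of these changes was not tested.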
